A study of Mus musculus with 2 samples.

Results

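Cacng5 and the other auxiliary subunits of AMPA-type glutamate receptors were examined in mouse brain sections taken after CCI (controlled cortical impact), in which a piston driven into the cortex of 1 hemisphere makes a focal brain lesion. The 8 genes Cacng2, Cacng3, Cacng4, Cacng5, Cacng7, Cacng8, Cnih2 and Cnih3 were taken by symbol from the 19070 genes of the count tables, and all 8 were measured. Cacng5 had been singled out because its level in the lesion over the mirrored tissue was above 1 at 3 days and below 1 at 28 days, so these ratios are given as a description. Visium HD for fixed tissue was used, in which probe pairs hybridised to the section are counted as unique molecular identifiers (UMIs) on a grid of squares, here bins of 16 µm. There was 1 section at 3 days and 1 at 28 days after CCI, each from a male C57Bl6 mouse with a labelled age of 3 months, which is the age at impact, with the injury over the right parietal cortex and no treatment apart from surgery and its anaesthetics and analgesics (ketamine, medetomidine, buprenorphine and bupivacaine). No section from a sham-operated mouse was analysed here, and the side opposite to the injury served as the internal reference.

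The 3 days section held 119617 bins after bins under 100 UMIs were left out, with 120484936 UMIs and a median of 851 UMIs per bin. The 28 days section held 103316 bins with 82294625 UMIs and a median of 610 UMIs per bin. The injured side lay below bin column 130 at 3 days and below column 240 at 28 days, and the capture area held 2.08 mm and 3.84 mm of it. Levels are CPM, the UMIs of a gene scaled to a common total of all UMIs in the same area. Each time point had 1 section, so the spread between mice was not measured and no test was run, and the intervals in parentheses are 95% intervals that cover counting error alone. A bin can hold parts of several cells, and fewer cells of a type cannot be told apart from less RNA per cell.

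AMPA receptors carry most fast excitatory transmission in the brain, and their pore is built from the subunits encoded by Gria1 to Gria4. Transmembrane AMPA receptor regulatory proteins (TARPs) bind the pore, slow its closing and bring it to the synapse. Type I TARPs are encoded by Cacng2 (stargazin), Cacng3, Cacng4 and Cacng8, and type II TARPs by Cacng5 and Cacng7, which modulate the channel but traffic it less. The cornichons Cnih2 and Cnih3 help export the receptor to the cell surface and prolong its currents. Gfap encodes an intermediate filament of astrocytes that accumulates when these cells react to injury.

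In the RefSeq annotation of GRCm38, Cacng5 lies on chr11:107874604-107915055 and its neighbour Cacng4 on chr11:107732357-107794706. Cacng7 at chr7:3332027-3368221 and Cacng8 at chr7:3394042-3416266 form another pair of neighbours. Cacng3 (chr7:122671744-122769393), Cacng2 (chr15:77991919-78120220), Cnih2 (chr19:5092868-5098521) and Cnih3 (chr1:181350459-181460641) lie apart from these pairs. RefSeq promoter windows, from 250 bases before to 50 bases after an annotated start, were at hand for 7 of the 8 genes, all but Cacng4. The windows of Cacng5 and of Gfap (gene at chr11:102887336-102897200) are shown because both transcripts were high along the same dorsal band of white matter at 3 days, as described further on. All 3 windows are on the minus strand of GRCm38, and capitals mark any match to TGANTCA, the letters of an AP-1 site, or to TTCNNNGAA, the letters of a STAT site.
Cacng5, chr11:107915006-107915305: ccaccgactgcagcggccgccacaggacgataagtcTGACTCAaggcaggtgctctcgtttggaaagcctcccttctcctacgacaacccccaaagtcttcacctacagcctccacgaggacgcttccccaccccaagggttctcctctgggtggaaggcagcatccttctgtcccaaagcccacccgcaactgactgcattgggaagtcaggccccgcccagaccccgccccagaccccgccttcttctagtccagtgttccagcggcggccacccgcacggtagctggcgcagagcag
Cacng5, chr11:107911313-107911612: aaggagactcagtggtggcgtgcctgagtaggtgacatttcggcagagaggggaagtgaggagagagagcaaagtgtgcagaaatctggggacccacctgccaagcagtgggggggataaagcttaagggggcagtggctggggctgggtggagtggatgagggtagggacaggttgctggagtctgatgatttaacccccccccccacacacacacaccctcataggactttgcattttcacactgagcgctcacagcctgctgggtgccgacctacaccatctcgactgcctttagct
Gfap, chr11:102897151-102897450: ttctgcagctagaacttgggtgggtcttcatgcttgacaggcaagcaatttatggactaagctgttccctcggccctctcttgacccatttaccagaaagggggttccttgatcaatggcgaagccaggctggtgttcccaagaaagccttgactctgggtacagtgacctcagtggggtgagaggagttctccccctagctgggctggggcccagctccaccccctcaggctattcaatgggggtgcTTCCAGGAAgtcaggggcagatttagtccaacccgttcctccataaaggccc

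The first Cacng5 window held TGANTCA once, at position -214 from the start, and the second held neither motif. The Gfap window held TTCNNNGAA once, at position -2. No window of Cacng2, Cacng3, Cacng7, Cacng8, Cnih2 or Cnih3 held either motif. Each motif reads the same on both strands, and the 2 motifs do not overlap in these windows. Among 32851 promoter windows of the same length, 7.81% held TGANTCA and 8.30% held TTCNNNGAA. A match is a description of the letters and was not tested for use by any factor.

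Cacng5 was a sparse transcript with a sharp anatomy. It had 3243 UMIs at 3 days, or 26.9 CPM, and 2019 UMIs at 28 days, or 24.5 CPM. A Cacng5 UMI was found in 2.52% of bins at 3 days and in 1.82% at 28 days. Bins were placed in regions by the local level of marker genes, none of which was one of the 8 genes. The relay nuclei of the thalamus, which pass sensory and motor signals to the cortex, held 22.4% of all Cacng5 UMIs at 3 days and 28.7% at 28 days, in tissue that held 10.6% of all UMIs in each section. On the side opposite to the injury Cacng5 had 56.2 CPM (51.4 to 61.2) in the relay nuclei at 3 days and 67.8 CPM (61.3 to 74.8) at 28 days. The CA2 field, a small stretch of the hippocampal pyramidal layer, was higher still, with 86.8 CPM (68.6 to 108) at 3 days and 113 CPM (93.6 to 136) at 28 days on that side. The adjacent CA3 field had 21.4 CPM and 4.66 CPM, so the step from CA2 to CA3 exceeded the counting error in both sections.

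**Figure D1:**
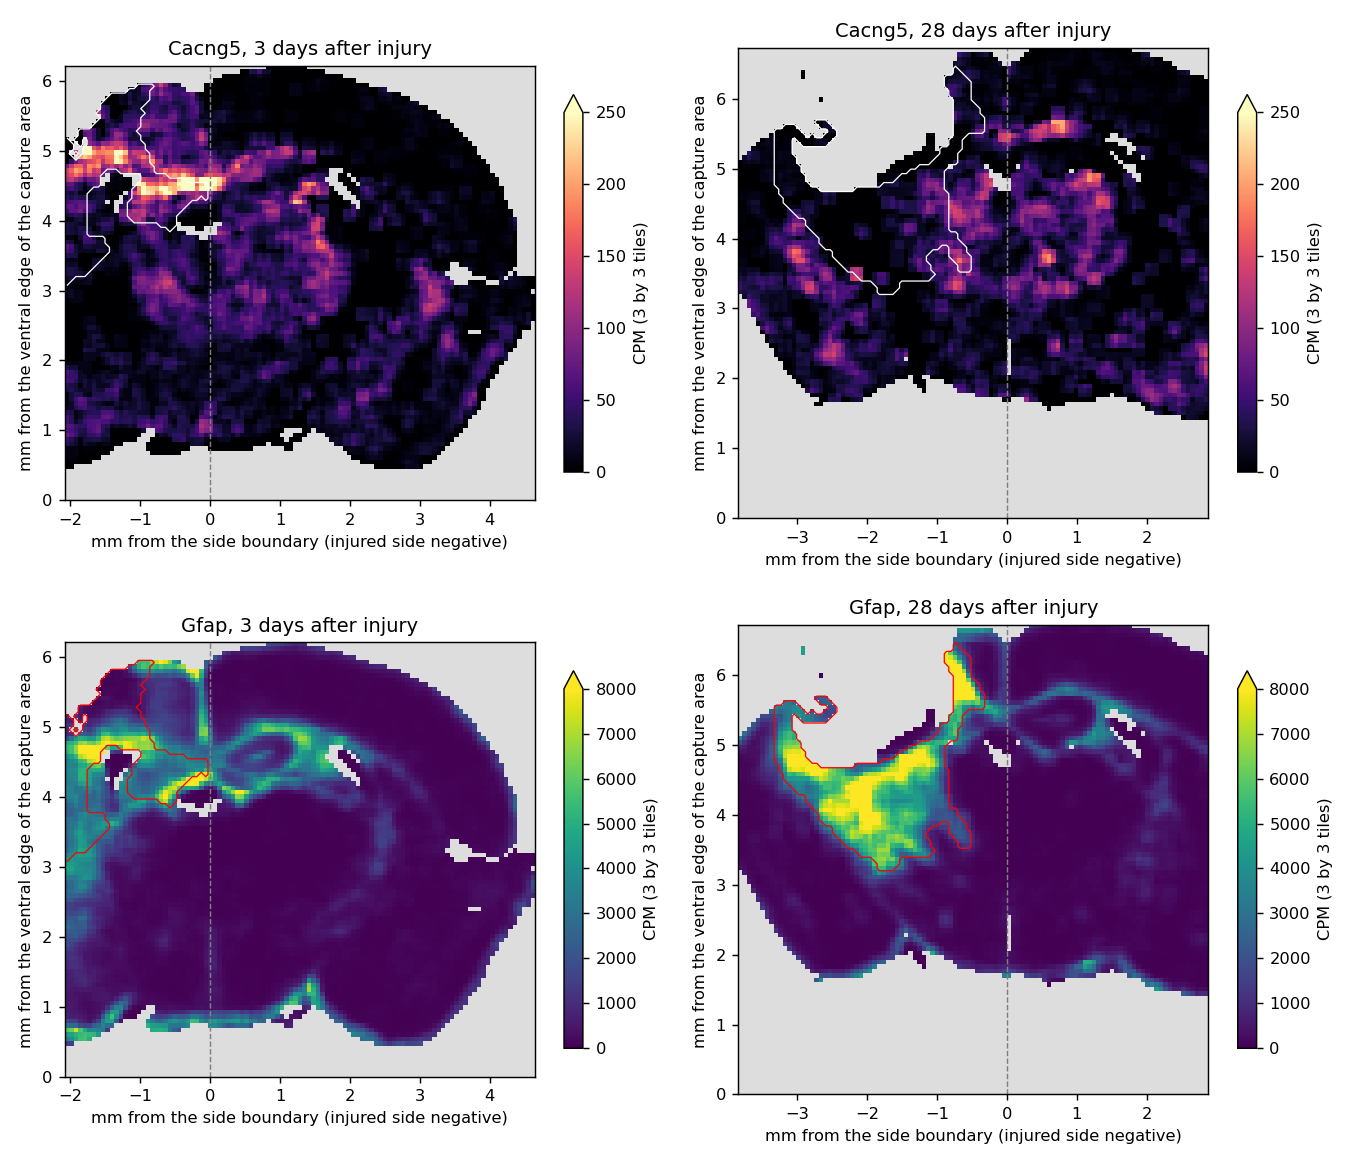
Maps of Cacng5 and Gfap in the 3 days and 28 days sections, with distances in mm on both axes (injured side negative, dashed line at the boundary of the sides), colour giving CPM averaged over neighbouring tiles and an outline around the lesion zone. Cacng5 is dense over the thalamus in both sections and follows a dorsal band of white matter at 3 days, where Gfap is also high. At 28 days Gfap is high over the lesion zone. Cacng5 looks dark there on this colour scale, at 19.7 CPM over the zone and 24.5 CPM over the whole section.

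The order of Cacng5 levels on the opposite side was resolved only in part. At 3 days the medial habenula, a small epithalamic nucleus, came next to CA2 with 58.6 CPM (43.1 to 78.0), and its interval overlapped those of CA2 and of the relay nuclei. Below them came the striatum at 38.1 CPM, the midline thalamic nuclei at 32.3 CPM and the hypothalamus at 21.7 CPM. At 28 days the hypothalamus had 67.7 CPM (54.2 to 83.5), level with the relay nuclei, the medial habenula had 50.7 CPM, the midline thalamic nuclei 26.2 CPM and the striatum 13.5 CPM. The hypothalamus and the striatum thus changed places between the sections. Whether both sections were cut at the same level was not tested. The cerebral cortex was low throughout on this side. Upper cortical layers had 6.98 and 4.58 CPM, layer 4 had 2.43 and 5.37 CPM, layer 5 had 6.66 and 5.12 CPM and layer 6 had 7.42 and 6.15 CPM at 3 and 28 days. The choroid plexus, which secretes cerebrospinal fluid and holds no neurons, had 5.43 CPM from 3 UMIs and 3.13 CPM from 2 UMIs. Bins that reached no region's threshold held 32.6% and 33.2% of the Cacng5 UMIs. Hippocampal labels of the injured side traced no pyramidal layer and were not used. The marker lists meant for CA1 and the basolateral amygdala marked wider areas, so these labels were not used in the text.

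**Figure D2:**
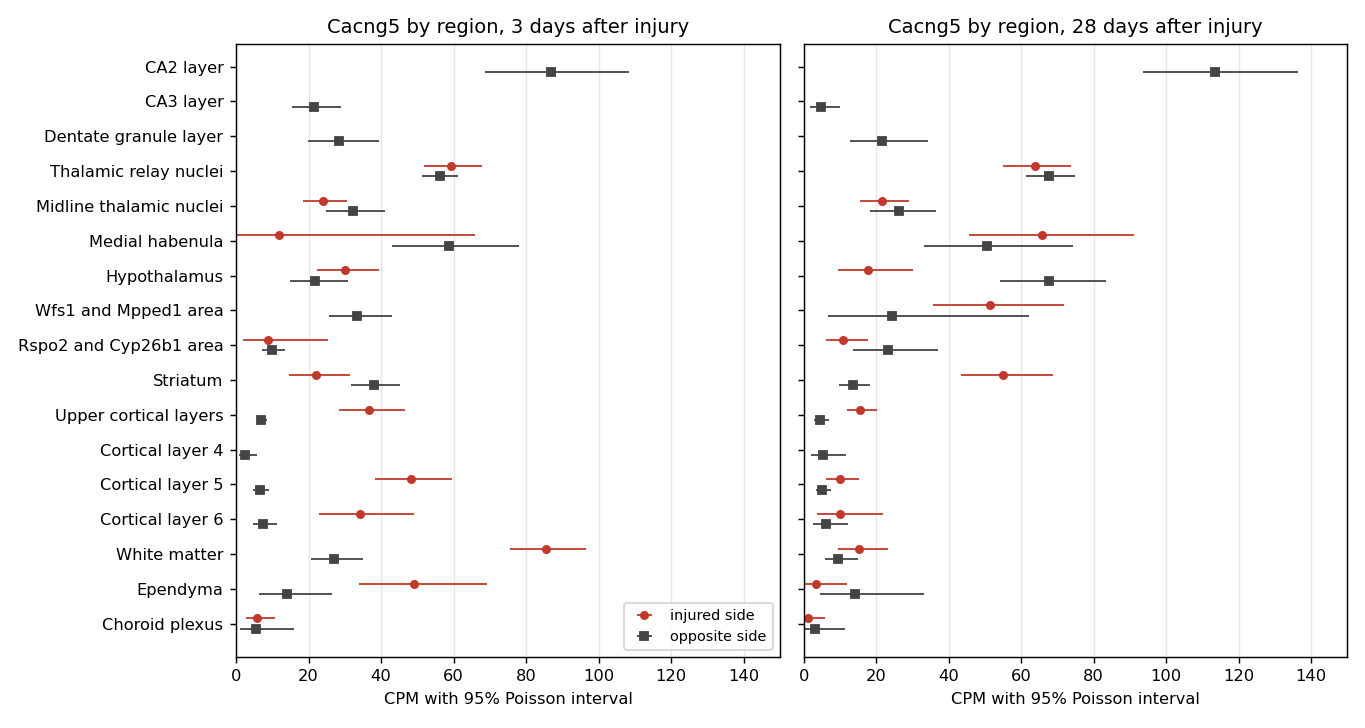
Cacng5 level in CPM by region on the injured and the opposite side of each section, with exact Poisson 95% intervals. On the opposite side CA2 is highest at 86.8 CPM at 3 days and 113 CPM at 28 days, and the cortical layers lie under 8 CPM. At 3 days the injured cortex and white matter lie above the same regions of the opposite side.

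In the relay nuclei and in opposite CA2 the bins with a Cacng5 UMI were lower in astrocyte and myelin markers than the bins without it. The astrocyte list includes Gfap. In the opposite relay nuclei at 28 days, astrocyte markers were lower in bins with Cacng5 than in bins without it, by a log2 ratio of -0.47, and neuronal markers had a ratio of 0.05 (-0.01 to 0.11). In opposite CA2 at 28 days, 94 bins with Cacng5 had a log2 ratio of -1.31 for astrocyte markers, -2.15 for myelin markers, 0.17 (0.11 to 0.24) for neuronal markers and 0.28 (0.14 to 0.42) for the glutamate transporter genes of excitatory neurons. At 3 days the astrocyte ratio in CA2 was -0.79 over 66 bins with Cacng5. Not all glial lists were lower, since in the injured relay nuclei at 28 days oligodendrocyte precursor markers had a ratio of 0.77 (0.04 to 1.37) and in the opposite ones phagocyte markers had 0.12 (-0.67 to 0.76). In the injured cortex astrocyte markers were higher in bins with Cacng5. At 3 days the log2 ratio was 0.25 (0.14 to 0.35) in layer 5 and 0.33 (0.08 to 0.56) in layer 6. At 28 days it was 0.59 (0.32 to 0.83) in layer 5, over 18 bins with Cacng5. Myelin markers were also higher in these 18 bins, at 0.64 (0.23 to 0.99), but lower at 3 days in injured layers 5 (-0.31) and 6 (-0.27). In layer 5 of the opposite side at both times, and in its layer 6 at 3 days, the intervals of the astrocyte ratio included 0. In opposite layer 5 at 3 days inhibitory neuron markers had 1.12 (0.55 to 1.59) and neuronal markers -0.33 (-0.50 to -0.17). The bins were not thinned, and in CA2 at 28 days those with Cacng5 held a mean of 2786 UMIs against 1121 in the others, so depth and marker content cannot be told apart. These bins share a region and a library, so the values describe where the UMIs lay.

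Over all relay nuclei no difference in the level of Cacng5 between the sides was detectable. In the relay nuclei the injured side had 59.4 CPM at 3 days, a log2 ratio over the opposite side of 0.08 (-0.16 to 0.31). At 28 days it had 63.9 CPM, a log2 ratio of -0.08 (-0.35 to 0.17). Gfap in the same relay nuclei at 28 days was 725 CPM injured and 41.4 CPM opposite, a log2 ratio of 4.13. A Gfap difference of this size was present in the relay nuclei with no Cacng5 difference detectable over all of them at this depth. The interval allows Cacng5 log2 ratios from -0.35 to 0.17. Within the lesion zone, described further on, relay nuclei had 48.4 CPM (33.5 to 67.6) at 28 days, against 70.8 CPM (61.5 to 81.1) in the mirror zone. That contrast is the one on which Cacng5 was chosen.

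Over the whole injured side Cacng5 had a log2 ratio of 0.81 (0.70 to 0.91) at 3 days and 0.01 (-0.12 to 0.14) at 28 days. The 3 days excess lay in cortex, white matter and ependyma, and in bins of no region (31.0 against 19.6 CPM). Cacng5 in the injured upper cortical layers was 36.8 CPM and in the opposite ones 6.98 CPM, a log2 ratio of 2.40 (1.93 to 2.85). In layer 5, the main output layer of the cortex, it was 48.2 and 6.66 CPM, a log2 ratio of 2.84 (2.30 to 3.43). In layer 6 it was 34.2 and 7.42 CPM, and in the ependyma, the lining of the ventricles, 49.2 CPM from 33 UMIs against 9 UMIs in a similar total. At 3 days the intervals of the ratios in the cortical layers and ependyma lay above 0. The values of the injured side overlap in part with the choice of Cacng5, since 422 of the 1433 UMIs of the injured side lay in the lesion zone, among them 22 of the 33 in the ependyma, 143 in bins of no region and 8 each in the upper layers and layer 6. No bin of layer 5 lay in that zone. Cacng4 was also higher in these injured layers, with log2 ratios of 0.71 (0.31 to 1.07) in the upper layers, 1.13 (0.71 to 1.53) in layer 5 and 1.27 (0.65 to 1.87) in layer 6. Others of the 8 genes were lower there, 5, 4 and 3 of them with intervals below 0 in the upper layers, layer 5 and layer 6. At least 2-fold lower were Cnih3 in the upper layers and Cacng3 and Cnih3 in layer 6. Of all genes 2.94%, 1.43% and 2.93% were at least 2-fold lower in these layers. At least 2-fold higher were 10.7%, 5.29% and 9.44% of all genes.

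At 28 days the cortical difference was smaller. Cacng5 was 15.7 CPM in the injured upper layers against 4.58 CPM, a log2 ratio of 1.76 (1.04 to 2.56) from 56 and 22 UMIs. In layer 5 it was 9.96 against 5.12 CPM, a log2 ratio of 0.97 (0.03 to 1.88) from 20 and 24 UMIs. The striatum ran the other way between the sections, with 22.0 CPM injured and 38.1 CPM opposite at 3 days and 55.0 and 13.5 CPM at 28 days. The injured layers are those that could still be recognised by their markers, in upper layers 1366 bins against 9910 at 3 days and 2478 against 3126 at 28 days. They are also only those inside the capture area, which held 2.08 mm of the injured side at 3 days and 3.84 mm at 28 days. The layers of the 2 sides, and of the 2 sections, can thus lie in unlike parts of the cortex.

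White matter also differed between the sides at 3 days. Cacng5 had 268 UMIs in white matter of the injured side, or 85.5 CPM (75.6 to 96.4), and 59 UMIs on the opposite side, or 27.1 CPM (20.7 to 35.0). The log2 ratio was 1.65 (1.25 to 2.09). Of the 268 UMIs, 223 lay in the lesion zone on which Cacng5 was chosen, so this value overlaps that choice. Among genes with at least 20 UMIs over both areas, 6.22% were at least 2-fold higher in injured white matter at 3 days and 1.46% at least 2-fold lower. Of the 8 genes, Cacng5 was the single gene at least 2-fold higher, and none was 2-fold lower. At 28 days Cacng5 had 21 UMIs (15.3 CPM) on the injured and 19 UMIs (9.56 CPM) on the opposite side, a log2 ratio of 0.67 (-0.29 to 1.65). At that time 6.98% of genes were at least 2-fold higher and 3.44% at least 2-fold lower, and of the 8 genes none was higher and Cacng3 and Cnih2 were lower. Between the sections, Cacng5 in all white matter was higher at 3 days by a log2 ratio of 2.46 (1.84 to 3.20) on the injured and 1.48 (0.74 to 2.33) on the opposite side. These ratios pool dorsal and ventral white matter, parted below, in unlike shares. The injured side had 3581 dorsal and 3732 ventral bins at 3 days, and 989 and 4145 at 28 days. Gfap in injured white matter was 3680 CPM at 3 days and 6080 CPM at 28 days, so it was higher in the section where Cacng5 was lower.

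The white matter dorsal to the midline choroid plexus, which holds the corpus callosum and its flanks, carried most of the 3 days signal. Cacng5 there was 140 CPM (123 to 159) on the injured side, from 244 of the 268 white matter UMIs, and 64.2 CPM (48.2 to 83.7) on the opposite side, from 54 of 59. White matter ventral to the choroid plexus had 17.2 CPM and 3.75 CPM. Within dorsal white matter the log2 ratio of the sides was 1.12 (0.70 to 1.58), smaller than over all white matter. On the opposite side too, dorsal white matter stood far above ventral white matter at 3 days. It also stood above dorsal white matter at 28 days, which had 26.2 CPM from 9 UMIs on the injured and 14.4 CPM from 7 UMIs on the opposite side. With 1 section per time and no sham section, whether this level of the opposite side went with the injury was not tested. At 3 days Cacng8, at 1186 CPM in the neighbouring CA2 field of the opposite side, had 68.9 CPM in dorsal white matter of that side. It had 83.4 CPM in dorsal white matter of the injured side, where no CA2 label was used. Transfer of UMIs between neighbouring areas was not tested.

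From lateral to medial the Cacng5 band was continuous across the midline at 3 days. In steps of 250 µm the level was highest from 1500 to 1250 µm lateral of the midline on the injured side, at 210 CPM (140 to 301). It stayed between 106 and 143 CPM from there to the midline. On the opposite side it was 115 and 127 CPM in the first 500 µm, between 66.7 and 81.4 CPM from 500 to 1500 µm, and 35.4 CPM from 1500 to 1750 µm. In the next step, from 1750 to 2000 µm, there was no UMI, which allows up to 61.3 CPM. Gfap had its highest step at 5706 CPM, from 1750 to 1500 µm on the injured side, and lay between 2918 and 3890 CPM over the first 1500 µm of the opposite side. At 28 days the steps of the injured side reached 1000 µm from the midline, so none lay where Cacng5 was highest at 3 days. No step held more than 5 Cacng5 UMIs, in steps of at most 211028 UMIs in all, against up to 378615 at 3 days. The step with 5 UMIs touched the midline on the injured side at 117 CPM (37.9 to 272). The same step at 3 days had 106 CPM (59.5 to 175). The 28 days step with the highest Gfap, 8255 CPM, held 2 Cacng5 UMIs.

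**Figure D3:**
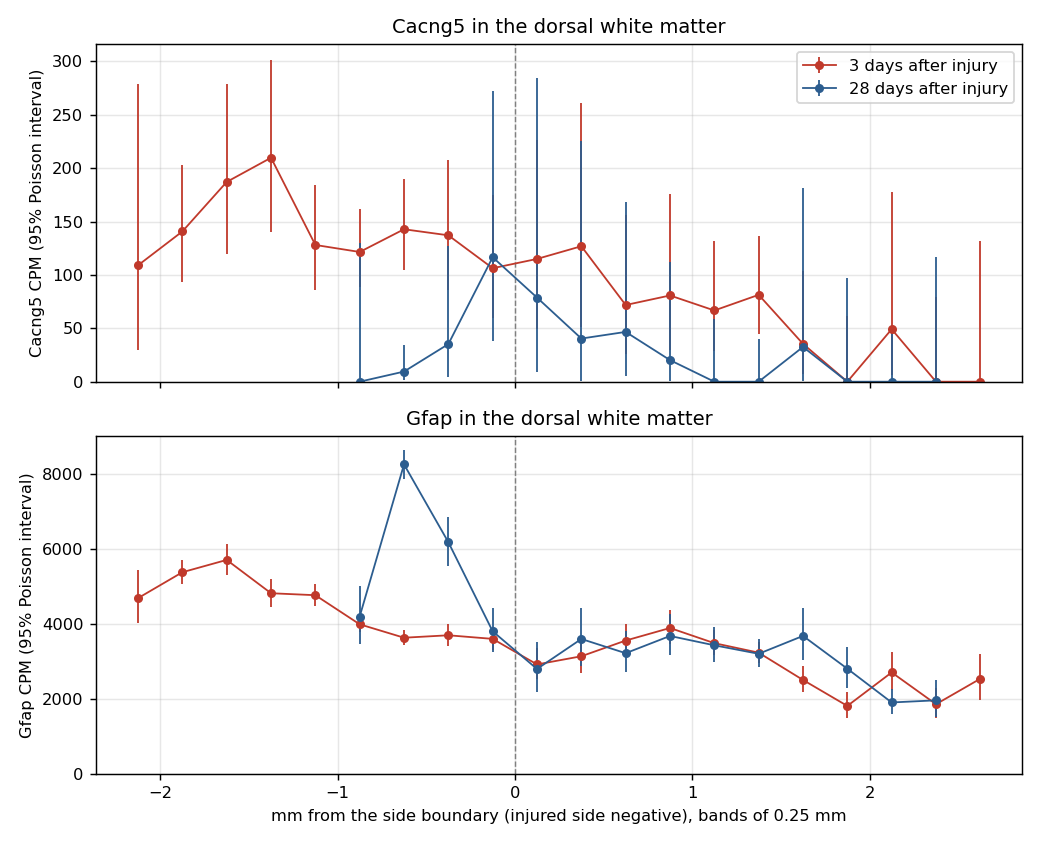
Cacng5 and Gfap levels in CPM along the dorsal white matter of each section, in steps of 250 µm from the midline, with negative distances on the injured side and exact Poisson 95% intervals. At 3 days Cacng5 reaches 210 CPM on the injured side and extends across the midline. At 28 days Gfap reaches 8255 CPM on the injured side in a step with 2 Cacng5 UMIs.

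Markers of other cells differed between the same dorsal areas. All 6 of 6 genes of the phagocyte list were detected in each, and their summed level at 3 days was 1139 CPM on the injured and 551 CPM on the opposite side, with single genes from 140 to 265 CPM and from 23.8 to 191 CPM. At 28 days the phagocyte sums were 1373 and 407 CPM. All 7 astrocyte genes were detected, with sums of 7430 and 7383 CPM at 3 days and 14166 and 9214 CPM at 28 days. Gfap is 1 of these 7 genes and had 4329 and 3009 CPM at 3 days and 6936 and 2935 CPM at 28 days. The similar sums at 3 days therefore do not mean similar levels of each gene. The neuronal list, 5 of 5 detected, had 843 and 816 CPM at 3 days, and the list of oligodendrocyte precursors, 3 of 3 detected, had 239 and 266 CPM. The myelin list was lower on the injured side, with 21952 against 32785 CPM at 3 days. The phagocyte sum was thus also high on the injured side at 28 days, where Cacng5 was at 26.2 CPM. Their part in the Cacng5 difference was not tested.

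Co-location of Cacng5 with Gfap was read first from the smoothed Gfap level around each bin. In white matter of the injured side at 3 days, Cacng5 was 3.33 CPM from 1 UMI where Gfap was under 1000 CPM. It was 41.7 CPM where Gfap was between 1000 and 2000 CPM, 92.6 CPM between 2000 and 4000 CPM and 109 CPM at 4000 CPM or more. On the opposite side the same steps had 5.63, 10.0, 75.5 and 57.6 CPM. White matter with little Gfap therefore had little Cacng5 on both sides at 3 days. At 28 days the injured steps were 15.1, 20.8, 46.2 and 9.62 CPM. All of this white matter held 9 Cacng5 UMIs in its dorsal and 12 in its ventral part. The step with the most Gfap held 10 of them and the other 3 steps shared the rest, so each step rested on few counts. Strong Gfap at 28 days did not come with a high Cacng5 level.

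Position and Gfap were tied to each other. Within dorsal white matter of the injured side at 3 days alone, Cacng5 showed no rise with Gfap, with 163, 139 and 140 CPM over the steps from 1000 CPM upward. In dorsal white matter of the opposite side Cacng5 was 15.5, 24.3, 83.6 and 72.8 CPM over the 4 steps, and in ventral white matter of the injured side it was 3.33, 4.94, 21.1 and 30.9 CPM. Injured cortical layers at 3 days had 30.3, 44.1, 72.3 and 53.0 CPM, the last from 5 UMIs, and already the cortex with little Gfap exceeded the opposite cortex at 6.33 CPM.

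The other TARPs and cornichons did not follow the Gfap steps in this way. In injured white matter at 3 days, Cacng2 went from 89.9 CPM in the lowest Gfap step to 8.83 CPM in the highest, and Cacng8 from 137 to 60.9 CPM. Cacng7 went from 220 to 147 CPM. Cacng4 lay between 56.6 and 77.7 CPM over the 4 steps, with overlapping intervals.

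The second reading used single bins, thinned to 300 UMIs so that depth could not set detection. In injured white matter at 3 days 4923 bins were deep enough and 2390 were left out. Cacng5 was 104 CPM in bins with a Gfap UMI and 86.0 CPM in bins without, a log2 ratio of 0.27 (-0.23 to 0.80). Of the bins with Cacng5, 65.2% held Gfap, against 59.8% of all these bins. At 500 UMIs the ratio was 0.78 (0.04 to 1.66), over fewer and deeper bins, and without thinning it was 1.12. At 300 UMIs the interval included 0. At 28 days 3 Cacng5 UMIs fell in bins with Gfap and 3 in bins without, which gives no ratio at this depth. Cacng7 had a log2 ratio of -0.60 (-0.98 to -0.22) at 3 days, and of -0.37 (-0.84 to 0.14) at 500 UMIs, where the interval included 0.

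The 245 injured white matter bins with Cacng5 at 3 days were compared with those without it, without thinning, at a mean of 602 against 422 UMIs per bin. Neuronal markers were lower in them, with a log2 ratio of -0.75 (-1.04 to -0.48). Astrocyte markers had a ratio of -0.15 (-0.24 to -0.06) and myelin markers -0.24. Phagocyte markers had 0.28 (0.03 to 0.50), the single one of the 9 lists whose interval lay above 0. The ratio for oligodendrocyte precursors was -0.36 (-0.99 to 0.16), not distinguishable from 0. Dorsal white matter held 244 of the 268 Cacng5 UMIs here, so position and bin content cannot be told apart. The phagocyte list had 1106 CPM in bins with Cacng5 and 1139 CPM in all injured dorsal white matter. The neuronal list had 733 and 843 CPM. Of the 268 UMIs, 223 lay in the lesion zone, which was placed from the same 6 phagocyte genes and on which Cacng5 was chosen. The phagocyte ratio therefore overlaps that choice. Which cells carried Cacng5 in the white matter was not resolved.

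A lesion zone was placed from 6 phagocyte genes and set against its mirror image on the opposite side, the contrast on which Cacng5 was chosen. Cacng5 had 422 UMIs in the 3 days zone, or 81.7 CPM, and 222 UMIs in the mirror zone, or 30.5 CPM, and the log2 ratio was 1.42 (1.19 to 1.66). At 28 days 141 UMIs, or 19.7 CPM, faced 267 UMIs, or 36.2 CPM, and the log2 ratio was -0.87 (-1.18 to -0.58). Gfap over the same zones had log2 ratios of 1.65 and 4.69. The zones did not hold the same tissue. At 3 days 47.1% of the zone bins were white matter, which held 52.8% of its Cacng5 UMIs at 114 CPM, against 18.3% of the mirror bins. At 28 days relay nuclei made up 35.8% of the mirror bins and held 77.5% of its Cacng5 UMIs at 70.8 CPM, but 9.79% of the zone bins, where they had 48.4 CPM.

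Against the same regions of the opposite side, weighted as in the zone, Cacng5 had a log2 ratio of 1.82 (1.68 to 1.96) in the 3 days zone and of -0.13 (-0.38 to 0.11) in the 28 days zone. These values use the same zone UMIs that chose Cacng5 and add no independent support. With the regions matched the interval at 28 days included 0. Zone bins of no region were set against opposite bins of no region, which can hold other tissue, and these intervals leave out the counting error of the reference.

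The type I TARPs had patterns of their own. Since the number of probes per gene is unknown here, levels are compared within a gene. Among the regions named here Cacng8, the TARP known from the hippocampus, was highest in CA2 and CA3 on the opposite side. It had 1186 and 1006 CPM at 3 days and 1148 and 1007 CPM at 28 days. Its dentate granule layer had 381 and 816 CPM and its relay nuclei 71.6 and 82.7 CPM. Cacng8 and Cacng5 therefore shared CA2 but parted in CA3 and in the thalamus. Cacng3 was a cortical transcript, with 253 and 244 CPM in upper layers and 35.3 and 35.6 CPM in relay nuclei. Cacng2 was spread over cortex and thalamus, with 146 and 127 CPM in layer 4, 145 and 141 CPM in relay nuclei and 39.5 and 48.8 CPM in white matter.

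Cacng4 came closest to Cacng5 among the 8 genes in being subcortical. On the opposite side it had 135 and 163 CPM in the striatum, 116 and 125 CPM in relay nuclei and 107 and 187 CPM in the medial habenula, but 13.6 and 8.06 CPM in layer 4 and 16.7 and 20.9 CPM in CA2. In white matter it had 57.0 CPM or more on both sides and at both times. In the injured relay nuclei at 3 days it was 151 CPM (139 to 164) against 116 CPM (109 to 123) on the opposite side.

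Of the type II TARPs, Cacng7 was present in every region. It had 435 and 328 CPM in opposite relay nuclei and 94.1 and 83.0 CPM in the choroid plexus, where Cacng5 had 3 and 2 UMIs. Its white matter level was 219 and 195 CPM on the opposite side and 151 and 157 CPM on the injured side. The type II pair thus shared the thalamus but not the cortex, where Cacng7 had 319 and 255 CPM in layer 4.

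The cornichons were highest in different regions. Cnih2 was highest in opposite CA2 at 152 and 139 CPM, ahead of CA3 at 83.2 and 98.7 CPM, and had 32.5 CPM in upper cortical layers at 3 days. Cnih3 was highest in layer 4 at 272 and 271 CPM and had 4.45 and 4.97 CPM in CA2, from 4 and 5 UMIs. In the injured relay nuclei Cnih3 was 116 CPM against 85.5 CPM at 3 days and 49.9 against 59.2 CPM at 28 days.

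**Figure D4:**
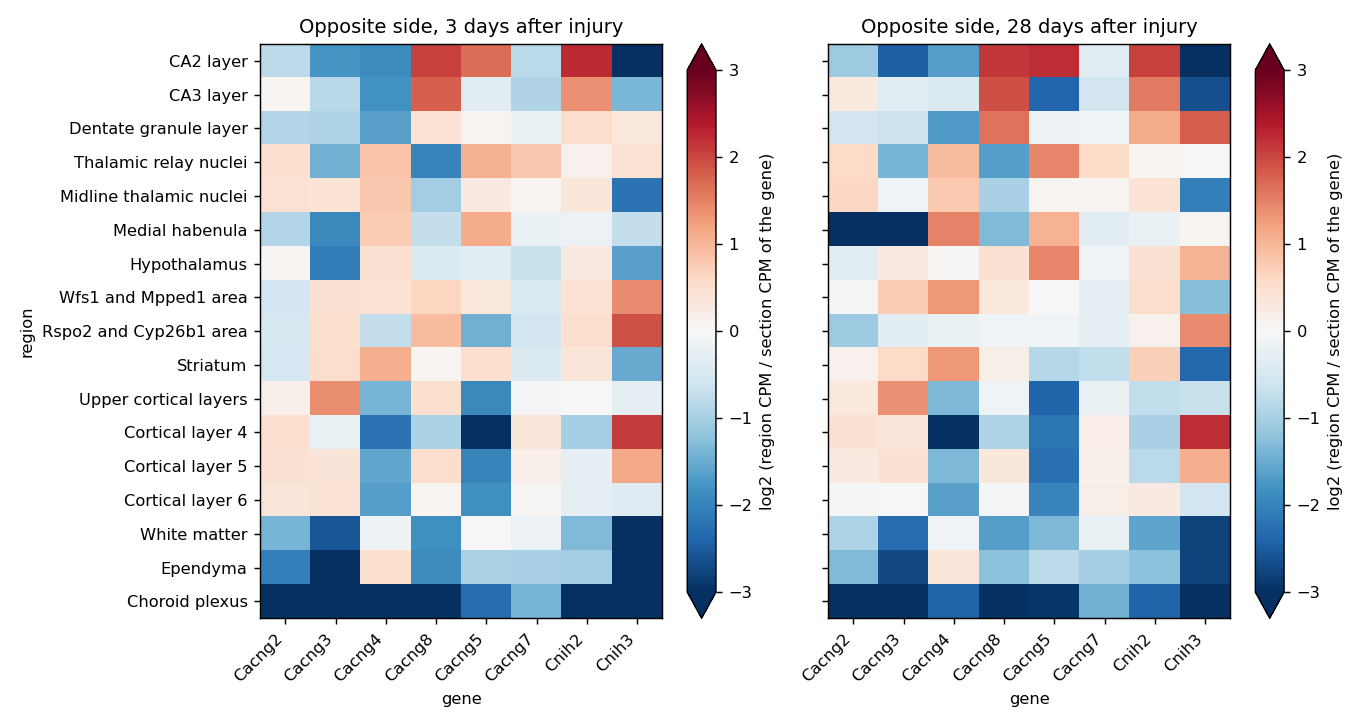
Level of each of the 8 genes by region on the opposite side of both sections, as colour giving the log2 ratio over the gene's own level in the whole section. Cacng5 and Cacng4 are high in the thalamus, Cacng8 and Cnih2 in CA2 and CA3, Cnih3 in layer 4 and Cacng3 in the upper cortical layers.

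Over the whole injured side at 3 days Cacng5 and Cacng4 were higher, with log2 ratios of 0.81 and 0.43. The other 6 genes were lower, from -0.21 for Cacng2 to -1.22 for Cnih3. None of the 8 was at least 2-fold higher, and Cacng3 and Cnih3 were at least 2-fold lower. Of 16164 genes with at least 20 UMIs over both sides, 1695 were at least 2-fold higher and 342 at least 2-fold lower. The median log2 ratio was -0.41 for the 8 and 0.14 for all genes. At 28 days Cacng2 had -0.39 and Cacng8 -0.21, while Cnih3 had 0.13. The 3 days section held fewer cortical bins on the injured than on the opposite side, and no layer 4 bin was assigned on the injured side. Dorsal white matter made up 3581 of the 39116 bins of the injured side and 3337 of the 80501 bins of the opposite side. The part of such tissue differences in the ratios of the 8 genes, among them the cortical genes Cacng3 and Cnih3, was not tested. Within layer 6 at 3 days both genes were at least 2-fold lower on the injured side, and Cnih3 also within the upper layers. Within layer 5 neither was 2-fold lower.

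In the lesion zone most of the 8 genes were lower than in the mirror zone. At 3 days Cacng2 had 144 UMIs in the zone and 806 in the mirror zone (27.9 and 111 CPM), Cacng8 had 880 and 3624 UMIs (170 and 498 CPM), and Cnih3 had 69 and 422 UMIs (13.4 and 57.9 CPM). Their log2 ratios were -1.98, -1.54 and -2.11. Cacng3 had -1.51, Cnih2 -1.71 and Cacng7 -0.79, the mildest decrease. Cacng4 was higher, with 409 and 263 UMIs (79.2 and 36.1 CPM) and a log2 ratio of 1.13 (0.91 to 1.36). With regions matched, Cacng4 had 0.25 and was no longer 2-fold higher, Cacng8 had -0.37 and Cacng3 -1.61.

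By count, 2 of the 8 genes, Cacng4 and Cacng5, were at least 2-fold higher in the 3 days zone, and 5 were at least 2-fold lower. Of all genes tested, 17.0% were at least 2-fold higher and 8.57% at least 2-fold lower. At 28 days none of the 8 was 2-fold higher and 4, Cacng2, Cacng3, Cacng8 and Cnih2, were 2-fold lower, beside 16.4% and 7.82% of all genes. With the regions matched, 3 of the 8 were 2-fold lower at 3 days, since Cacng8 (-0.37) and Cnih2 (-0.75) no longer were, and the same 4 at 28 days, beside 5.66% and 7.78% of all genes. Cacng5 alone was 2-fold higher at 3 days and none of the 8 at 28 days, beside 11.4% and 11.7%. Against the mirror zone, the median log2 ratio of the 8 was -1.53 and -0.97, against 0.13 and -0.00 for all genes. With the regions matched it was -0.75 and -0.82, against 0.02 and -0.08 for all genes. Cacng5, chosen on this contrast, is part of these counts.

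At 28 days the log2 ratios were -1.64 for Cacng2, -1.07 for Cacng3, -0.58 for Cacng4, -1.13 for Cacng8, -0.74 for Cacng7, -1.69 for Cnih2 and -0.77 for Cnih3. Cacng4 had 395 and 610 UMIs (55.2 and 82.6 CPM), so that it, like its chromosomal neighbour Cacng5, was above the mirror zone at 3 days and below it at 28 days. Regions matched, Cacng4 had -0.38 at 28 days. Among the genes lower in both sections, Cnih3 had the ratio that differed most between them. Its reference differed too, since the mirror zone held 183 bins of layer 4, where Cnih3 was highest, at 3 days and 0 at 28 days. Regions matched, Cnih3 had -1.36 at 3 days and -0.54 at 28 days.

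**Figure D5:**
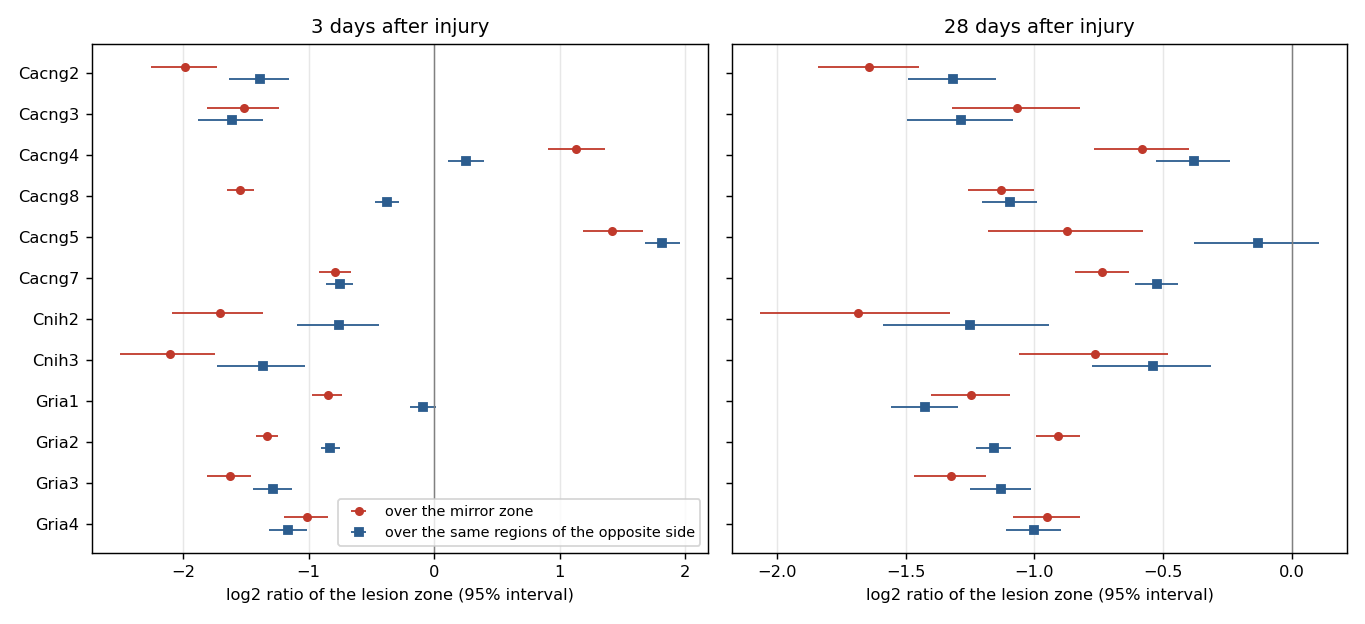
Log2 ratio of lesion zone over mirror zone (circles) and over the same regions of the opposite side (squares) for the 8 genes and the pore subunits Gria1 to Gria4 at 3 and 28 days, with 95% intervals of counting error. Cacng5 (1.42 and -0.87) and Cacng4 (1.13 and -0.58) change sign between the sections over the mirror zone, where the pore subunits lie below 0 in both sections.

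The pore subunits had lower levels in the lesion zone in both sections, before the regions were matched. Gria2, which makes the channel impermeable to calcium, had 286 and 720 CPM at 3 days and 243 and 456 CPM at 28 days, log2 ratios of -1.33 and -0.91. Gria1 had -0.85 and -1.25, Gria3 -1.63 and -1.33 and Gria4 -1.02 and -0.95. With the regions matched, Gria1 at 3 days had -0.09 (-0.19 to 0.01), an interval that included 0, and Gria2 had -0.83, Gria3 -1.29 and Gria4 -1.16. At 28 days the matched ratios were -1.42 for Gria1, -1.16 for Gria2 and -1.13 for Gria3. Of the 27 genes of the AMPA receptor pathway list, 26 were among the probes, and against the mirror zone 1 was at least 2-fold higher and 11 at least 2-fold lower in each section, beside 17.0% and 8.57% of all genes at 3 days and 16.4% and 7.82% at 28 days. With the regions matched, 1 gene, Nptx2, was higher and 3, Gria3, Gria4 and Nptxr, were lower at 3 days, and at 28 days none was higher and 11 were lower, beside the 5.66% and 7.78% of all genes given above. Shisa8 was then 2-fold higher in neither section, and Shisa6, Syndig1 and Frrs1l were 2-fold lower in neither. The gene higher than in the mirror zone was Shisa8, an auxiliary subunit of the CKAMP family, with 23.4 against 8.79 CPM at 3 days and 20.8 against 8.81 CPM at 28 days, log2 ratios of 1.41 and 1.24. The list had median log2 ratios of -0.92 and -0.96.

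Against the mirror zone, at least 2-fold lower in both sections were Gria3, the auxiliary subunits Shisa6 and Syndig1 and the assembly factor Frrs1l. So were the ATPase Nsf that acts on receptor trafficking and the synaptic adhesion gene Lrrtm2. At 3 days alone the scaffold genes Dlg2 (-1.15) and Dlg3 (-1.09) and the pentraxin receptor gene Nptxr (-2.50) also passed 2-fold, beside Gria2 and Gria4. At 28 days these genes were lower by less than 2-fold, from -0.91 for Gria2 to -0.98 for Dlg2. At 28 days alone Gria1, Gsg1l (-1.14), Shisa7 (-1.11), Dlg4 and Nptx2 (-1.39) passed 2-fold. Of these, Gria1 (-0.85), Dlg4 (-0.98) and Shisa7 (-0.58) were already lower at 3 days, by less than 2-fold. Gsg1l had 0.99 at 3 days, just under 2-fold higher, and Nptx2 had 0.09. In white matter of the injured side at 3 days, Nptx2, an activity-regulated pentraxin that clusters AMPA receptors, was the single list gene of 26 at least 2-fold higher. Gsg1l was the single one at least 2-fold lower. Of all genes 6.22% were at least 2-fold higher and 1.46% at least 2-fold lower. At 28 days Shisa9 and Dlg2 of 23 were at least 2-fold lower there and none was at least 2-fold higher, beside 3.44% and 6.98% of all genes.

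Relatives of the 2 families outside the AMPA receptor set served for orientation. Cacng1, a subunit of the skeletal muscle calcium channel, was close to 0 at 0.166 and 0.243 CPM over the sections, although it lies beside Cacng4. Cacng6 had 1.66 and 1.70 CPM. The broadly expressed cornichons Cnih1 and Cnih4 had 87.2 and 79.2 CPM at 3 days and 84.9 and 74.3 CPM at 28 days, and in the zone neither was 2-fold changed. Cnih4 had log2 ratios of 0.69 and 0.36 and Cnih1 0.23 and -0.21.

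Genes most alike in pattern were sought over squares of 8 by 8 bins, 1756 at 3 days and 1455 at 28 days, among 11576 genes with at least 500 UMIs in each section. Squares of a section share its library and neighbouring squares share tissue, so the coefficients are descriptions. For Cacng5 the highest Pearson coefficients at 3 and 28 days were those of Amotl1 (0.43 and 0.38), Rasd1 (0.35 and 0.36), Prkcd (0.35 and 0.34), Plekhg1 (0.34 and 0.33) and Rgs16 (0.36 and 0.33). Prkcd and Plekhg1 are in the list that marked the relay nuclei. Gfap had 0.15 at 3 days and -0.09 at 28 days, and Cacng4 had 0.29 and 0.24. Gfap was thus not among the genes most like Cacng5 in either section.

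Among the other 7 genes, Cacng8 was most like Gria2, with coefficients of 0.75 and 0.73, then Psd and Agap2. The genes most like Cacng2 included Snrpn and Rab3a, and those most like Cacng7 included Sncb and Cend1. Cacng3 was most like Kcnq5, Arf3 and Itpka, Cnih2 like Camkv, Arf3 and Fbxl16, and Cnih3 like Kalrn, Lingo1 and Septin5. Cacng4 was most like Nrsn2, Spock3 and Oprm1, with coefficients of 0.36 or more.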

How the data were processed

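Spatial expression was measured in 1 section per time point. The authors deposited raw UMI counts per gene and 16 µm bin, made with Space Ranger 4.0.1 (file header) and the mouse probe set 2.0; the labels name mm10, and no normalization was applied. The 8 genes, the marker lists and the tests were chosen with earlier results of these data known. All 8 genes are named, with the 5 genes most like Cacng5 and the 3 most like each other gene by the lower of both sections' coefficients on log2(CPM + 10), the 4 pore subunits, and other pathway genes past 2-fold, and 2 of the genes so chosen are not reported here. Bins under 100 UMIs (1.93% and 2.15%) were left out. Regions came from smoothed marker scores of 17 lists (threshold 0.25, patches of at least 100 bins). The lesion zone came from 6 phagocyte genes averaged over 5 by 5 tiles, with a cutoff at percentile 99 of the opposite hemisphere. Of the zone bins 92.3% and 86.6% had a mirror bin over tissue. Ratios used a pseudocount of 0.5 UMI. Called genes had at least 20 UMIs over both areas and a 2-fold difference. Intervals were exact Poisson, conditional binomial or Clopper-Pearson at 95%. Alternatives included TMM scaling (edgeR 4.0.16, R 4.3.3), UMIs per bin, other axes and thresholds. Methods were tested on simulated data. Computations ran in Python 3.11.15 with scipy 1.17.1, pandas 2.3.3 and numpy 2.4.6, and figures in matplotlib 3.10.9.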

Additional observations from a re-analysis of the deposited data

Results flagged for a closer look

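Cacng5 and Cacng4 had opposite signs in the sections for the log2 ratio of the lesion zone over the mirror zone. Cacng5 had 1.42 at 3 days and -0.87 at 28 days, and Cacng4 had 1.13 and -0.58. Each time point had 1 section, so the difference between the time points was not tested. Cacng5 had been chosen for this change of sign.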

How the results depend on the processing

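Of 54 alternative values of the main results 36 moved by less than their counting interval, 17 moved beyond it and 1 reversed. Of 292 values for single genes, 210 stayed, 78 moved and 4 reversed. The Cacng5 zone ratio of 1.42 at 3 days became 0.81 in UMIs per bin, 1.91 against the whole opposite side, 0.82 with the zone at the 95th percentile, 2.90 with the axis 20 bins nearer the opposite side and 1.82 against the same regions. The 28 days ratio of -0.87 became -0.31 against the whole opposite side, -0.57 over zone bins with a mirror bin, -0.13 against the same regions, and reversed to 0.57 with the axis 20 bins nearer the opposite side. Its sign therefore depended on the reference tissue. An axis at the median Gbx2 column gave identical values, since it fell on the same columns.

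In UMIs per bin the Cacng5 side ratio at 28 days was -0.15, the white matter ratio at 3 days 2.30, CA2 over the rest 2.42 and 3.03 (1.71 and 2.28 in CPM), and relay nuclei over the rest at 28 days 1.48 (1.77 in CPM). Dorsal white matter alone gave 1.12 at 3 days, CA2 over the rest 1.36 with a looser region threshold at 3 days, and sharing of bins with Gfap 1.12 without thinning. With Spearman coefficients, 2 of the 5 genes most like Cacng5 were kept. Single genes that reversed in UMIs per bin were Cacng7 in white matter at 3 days (0.11), Cacng5 in white matter over the rest of the section at 3 days (-0.39) and the Cnih3 side ratio at 28 days (-0.027). The Cnih3 zone ratio at 28 days reversed to 0.051 with the axis 20 bins nearer the opposite side. The causes were not tested. Cacng5 in white matter at 28 days rested on few counts, with 40 UMIs over both sides. No paired analysis was possible because each group had 1 section.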
